A study of Mus musculus with 2 samples.

Results

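The 7 genes of Schwann cells and myelin considered here, Pmp22, Mbp, Fabp7, S100b, Egfl8, Cnp and Ptprz1, were followed in neural crest cells sorted from embryonic mouse hearts. They were taken by name, and each was read from the transcript cluster (the array's set of probes for one transcript) that the platform annotation gives to that symbol alone. All 7 were measured, by 1 cluster each, out of 19938 genes with such a cluster. The cells came from E14.5 hearts, and Adam19-/-; Wnt1-Cre; R26tdTomato/+ cells were compared with Adam19+/+; Wnt1-Cre; R26tdTomato/+ cells, both on a C57BL/6 background. Wnt1-Cre is active in the early neural crest and switches on tdTomato, so sorting for red fluorescence collects descendants of the neural crest, whatever they have become. Each genotype is represented by 1 array (n = 1), without replicates, so every difference below is one between 2 samples and carries no standard error or p-value. The sources used here give neither the number of embryos pooled for an array nor how the Adam19 allele was made.

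Schwann cells are the glia of peripheral nerves. They arise from the neural crest through Schwann cell precursors, which travel along axons into organs such as the heart and depend on neuregulin from the axon acting on the receptor ERBB3. Some later wrap axons in myelin, a compacted membrane, while others enclose thin axons without making myelin, and related satellite glia surround neurons in ganglia. Pmp22 and Mbp encode structural proteins of myelin, the first in the membrane and the second on its cytoplasmic face. Cnp encodes a cyclic nucleotide phosphodiesterase of glial membranes. Fabp7, the brain lipid-binding protein, and S100b, a calcium-binding protein, are widely used glial markers, Fabp7 from the precursor stage on. Ptprz1 encodes a receptor tyrosine phosphatase that binds pleiotrophin and contactins, and Egfl8 a secreted protein with EGF-like domains. Pmp22 and Cnp are also made by many cells that are not glia.

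Of the 7 genes, Ptprz1 and Fabp7 were lowest in Adam19-/- cells relative to genes of like signal, and Pmp22 is the one with several listed start sites among the 6 genes whose windows were considered. The windows around their transcription starts are shown because they differ in base composition. Each runs from 250 bases before the start to 50 after it, in RefSeq's GRCm38.p6, 5′ to 3′ on the gene's strand. Capitals mark matches, on either strand, to the SOX motifs ACAAAG or ACAATG, the RBPJ motif TGGGAA, the TEAD motif GGAATG, the CCAAT box CCAAT and the TATA box TATAAA. Fabp7 is on chromosome 10 (chr10:57784673-57784972, plus strand), Ptprz1 on chromosome 6 (chr6:22875252-22875551, plus strand) and Pmp22 on chromosome 11, with the first of its 4 listed windows at chr11:63128732-63129031 and the last at chr11:63132553-63132852, both on the plus strand.
Fabp7: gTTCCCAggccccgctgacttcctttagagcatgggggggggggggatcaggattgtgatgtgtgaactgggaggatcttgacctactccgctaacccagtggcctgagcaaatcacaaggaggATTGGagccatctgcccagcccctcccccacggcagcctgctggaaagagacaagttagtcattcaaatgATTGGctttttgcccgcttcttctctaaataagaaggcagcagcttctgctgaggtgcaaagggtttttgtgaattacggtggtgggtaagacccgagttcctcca
Ptprz1: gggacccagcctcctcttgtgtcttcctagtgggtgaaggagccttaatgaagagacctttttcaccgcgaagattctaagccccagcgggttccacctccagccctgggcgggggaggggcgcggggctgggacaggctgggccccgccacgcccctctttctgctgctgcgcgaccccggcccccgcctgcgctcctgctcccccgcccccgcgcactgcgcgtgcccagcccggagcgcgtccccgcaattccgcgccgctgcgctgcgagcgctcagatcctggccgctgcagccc
Pmp22, first window: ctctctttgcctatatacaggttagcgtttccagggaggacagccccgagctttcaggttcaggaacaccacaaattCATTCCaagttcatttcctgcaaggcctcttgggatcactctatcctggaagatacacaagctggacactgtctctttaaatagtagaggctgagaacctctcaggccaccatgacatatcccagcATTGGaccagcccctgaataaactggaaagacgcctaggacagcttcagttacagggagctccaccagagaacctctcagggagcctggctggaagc
Pmp22, last window: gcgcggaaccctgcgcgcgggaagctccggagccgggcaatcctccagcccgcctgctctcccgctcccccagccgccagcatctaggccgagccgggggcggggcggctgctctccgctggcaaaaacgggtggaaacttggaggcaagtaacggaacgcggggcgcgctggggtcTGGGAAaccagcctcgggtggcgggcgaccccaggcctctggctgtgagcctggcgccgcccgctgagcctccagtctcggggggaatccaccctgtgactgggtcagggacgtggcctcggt

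The Ptprz1 window is GC-rich, at 71.7% G or C with 29 CpG dinucleotides, and holds none of the motifs searched. The Fabp7 window has 54% G or C and 6 CpG, close to the medians of 52.7% and 7 over all 32851 windows, and holds 1 RBPJ match and 2 CCAAT boxes. The first Pmp22 window has 50.7% G or C and 3 CpG, with 1 TEAD match and 1 CCAAT box, whereas the last has 72.3% and 30 CpG, with 1 RBPJ match. TGGGAA and GGAATG can share bases, but no matches overlap in these windows. Such short motifs are common. Of all windows, 28.6% hold a SOX match, 25.6% an RBPJ match, 14.7% a TEAD match, 37.4% a CCAAT box and 13.6% a TATA box. Fabp7 and Ptprz1, both lower in Adam19-/- cells, thus differ in base composition at their starts. A match is only a string of letters, not a bound site.

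The receptor phosphatase gene Ptprz1 had the largest difference of the 7. Ptprz1 had a log2 signal of 10.74 in Adam19-/- cells against 11.09 in Adam19+/+ cells, differing by -0.34. On the linear scale this was a signal of 1713 in Adam19-/- cells against 2173 in Adam19+/+ cells, or 78.8% of the Adam19+/+ level. As background served the 10122 genes that exceeded, on 1 array or both, an expression floor of 8.01, which is the middle of all genes' mean log2 signals and not a limit of detection. Of these genes, 54, or 0.533%, had a difference as low as that of Ptprz1. Spread narrows as signal increases, so the 1956 genes within 0.5 of its mean log2 signal were also used. Their central 95% ran from -0.18 to 0.24, and 0.307% of them were as low.

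The glial lipid carrier gene Fabp7 and the myelin gene Mbp were lower by a similar amount. Fabp7 had a log2 signal of 13.30 in Adam19-/- cells against 13.45 in Adam19+/+ cells, differing by -0.15, or 90.1% of the Adam19+/+ linear signal. Among all genes above the floor 4.54% were as low. Among the 117 genes with a signal as strong, where the central 95% ran from -0.13 to 0.15, 1.71% were as low. The 117 include Fabp7 itself, and only a few of them lie beyond either end of that range. Mbp stood at 9.004 in Adam19-/- cells against 9.153 in Adam19+/+ cells, again differing by -0.15. For Mbp the 2894 genes of like signal spread more widely, from -0.20 to 0.32, and 4.91% of them were as low. On the deposited scale the same difference thus lay outside the central range for Fabp7 and inside it for Mbp. Fabp7 and Mbp stood at -0.12 and -0.18 after quantile normalisation, and at -0.15 and -0.20 after lowess centring. Under both, Fabp7 was again outside its range and Mbp inside. After quantile normalisation Fabp7 was outside only narrowly, at -0.122 against a lower limit of -0.110.

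The other 4 genes differed by less than 0.10. Egfl8 had a log2 signal of 11.19 in Adam19-/- cells against 11.25 in Adam19+/+ cells, differing by -0.06, and 15.9% of genes above the floor were as low. S100b had 7.64 in Adam19-/- cells against 7.68 in Adam19+/+ cells, differing by -0.04. It lay under the floor on both arrays, so this glial marker was not among the background genes. Cnp had 10.97 in Adam19-/- cells against 10.88 in Adam19+/+ cells, differing by 0.09, and 31.4% of genes were as high. Pmp22 had 12.80 in Adam19-/- cells against 12.77 in Adam19+/+ cells, differing by 0.03. It lay just under the median of all genes, 0.04, and it took a negative sign, -0.01, once that median was subtracted. Pmp22 and Cnp are on chromosome 11, as is Adam19, with 131 and 448 genes above the floor between them and it.

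**Figure D1:**
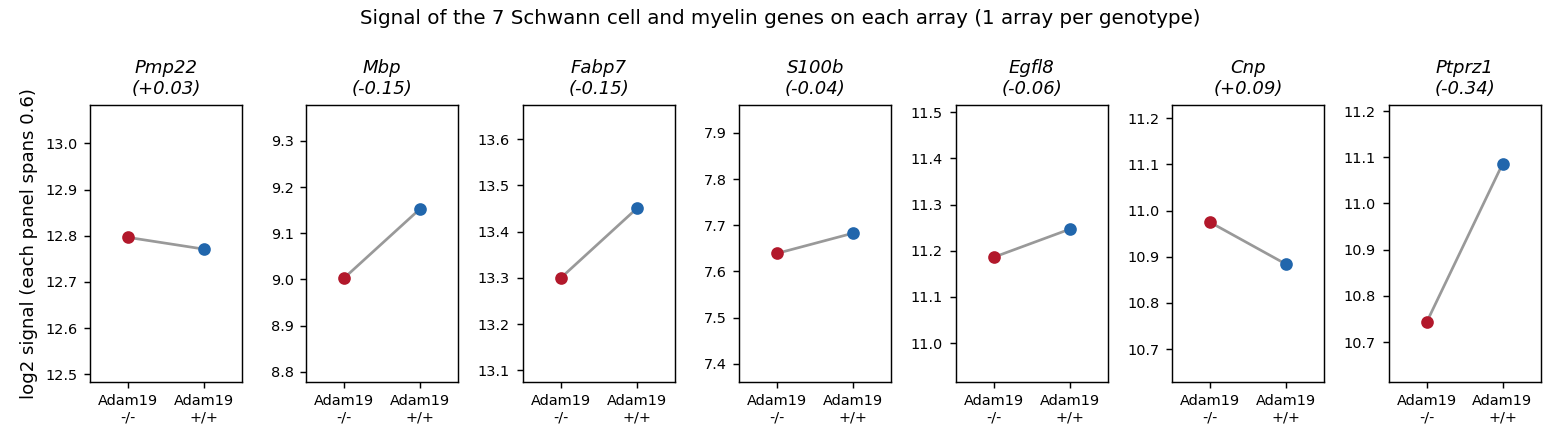
Log2 signal (vertical axis) of the 7 genes on the Adam19-/- array (red, left) and the Adam19+/+ array (blue, right), 1 array per genotype, with the difference above each panel. All panels span the same range, so slopes compare directly. Ptprz1 has the steepest line, at -0.34, followed by Fabp7 and Mbp at -0.15 each.

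Over the 7 genes, 5 were lower and 2 higher in Adam19-/- cells, with a median difference of -0.06. Leaving out S100b, which did not reach the floor, 4 of 6 were lower with a median of -0.11. Among all genes above the floor 33.7% were lower and 65.2% higher, around a median of 0.04. At least 1.1-fold lower were 3 of the 6, namely Ptprz1, Fabp7 and Mbp, against 5.45% of all genes. Fabp7 and Mbp passed this mark narrowly, at 1.11-fold each. After quantile normalisation Fabp7, at -0.12, fell short of the 0.14 on the log2 scale that 1.1-fold stands for. None of the 6 was at least 1.1-fold higher, against 19.1% of all genes. Only Ptprz1 was lower by 0.32 or more on the log2 scale, being 1.27-fold lower, against 0.652% of all genes, and 1.97% of all genes were higher by 0.32 or more. None of the 7 reached 1.5-fold in either direction, as did 24 genes or 0.237%. The genes were picked with earlier results of these arrays known, so these counts describe them and are no test.

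The arrays give one measure of technical scatter. For 583 genes with at least 2 clusters above the floor, the differences given by their 2 brightest clusters lay a median of 0.05 apart, with a 95th percentile of 0.24. Ptprz1 alone exceeded this 95th percentile, while Fabp7, Mbp, Cnp and Egfl8 lay between the median and the 95th percentile and S100b and Pmp22 under the median. This scatter holds no variation between embryos, nor any between the arrays that shifts both clusters of a gene alike. A difference larger than it can therefore still be technical. Each of the 7 genes has a single cluster, so none can be checked by a second one. In bulk RNA, fewer glial cells in a sample and less of the RNA in each cell cannot be told apart.

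**Figure D2:**
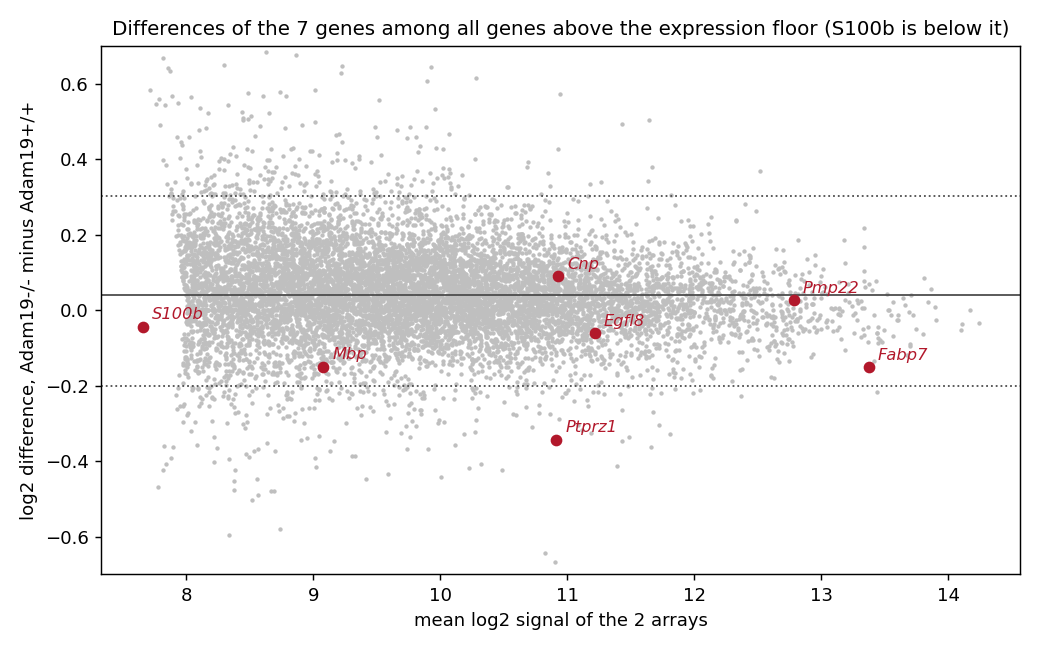
Log2 difference, Adam19-/- minus Adam19+/+ (vertical axis), against the mean log2 signal of the 2 arrays (horizontal axis) for genes above the floor (grey) and the 7 genes (red). The solid line is the median of all genes, 0.04, the dotted lines bound their central 95%, from -0.20 to 0.30, and 10 genes lie beyond the axis limits of 0.7. Ptprz1 is below the lower line, and Fabp7 lies low for its strong signal.

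Several genes of the Schwann cell lineage lay above the floor on both arrays. The 4 given first were picked after their values were seen. Sox10, the transcription factor of neural crest and its glia, had a log2 signal of 10.50 in Adam19-/- cells against 10.45 in Adam19+/+ cells. Foxd3, which acts in the crest and in Schwann cell precursors, had 9.973 in Adam19-/- cells against 10.001 in Adam19+/+ cells. Ngfr, the low-affinity neurotrophin receptor of immature Schwann cells, had 10.78 in Adam19-/- cells against 10.77 in Adam19+/+ cells. Erbb3, the neuregulin receptor of Schwann cell precursors, had 11.09 in Adam19-/- cells against 11.19 in Adam19+/+ cells, differing by -0.11. Sox10, Foxd3 and Ngfr differed by 0.05, -0.03 and 0.01, and the sign of Ngfr was negative after quantile normalisation and after either centring. Other lineage genes differed in both directions, such as Sox2 at -0.11 and Cdh19 at -0.14 against Tfap2b at 0.26 and Zfp488 at 0.15. Of the 20 lineage factors listed, 5 lay under the floor on both arrays, namely Pax3, Pou3f1, Pou3f2, Olig1 and Nkx2-2.

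Other myelin genes differed in both directions. Of 29 other measured genes of myelin proteins and myelin lipids, 13 lay under the floor on both arrays, among them Gjb1, the connexin of Schwann cell myelin, at 5.69 in Adam19-/- cells against 5.81 in Adam19+/+ cells. A further 3 genes of this list were not analysed here. The 16 above the floor comprised 7 higher and 9 lower, against 65.2% and 33.7% of all genes, the median being -0.01. Of the 16, 2 were at least 1.1-fold higher and 1 at least 1.1-fold lower, against 19.1% and 5.45% of all genes. The largest differences were those of Cldn11, a tight-junction protein of central myelin, and Gjc3, a connexin of Schwann cells, at 0.18 and 0.17, and of Nfasc, the neurofascin of the node region, and Mal, a raft protein of myelin, at -0.16 and -0.14. The rest of the 16 differed by less than 1.1-fold.

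Genes listed for the Schwann cell precursor surface and its secreted factors were mostly lower. The list does not stand for Schwann cells alone, since Postn is also among the mesenchymal markers used below. Of 29 measured, 24 were above the floor, 15 lower and 9 higher, against 33.7% and 65.2% of all genes. The median was -0.09 beside 0.04 for all genes. At least 1.1-fold lower were 7 of the 24, against 5.45% of all genes, and none was at least 1.1-fold higher, against 19.1% of all genes. L1cam, an adhesion molecule of axons and glia, and Dhh, the hedgehog ligand of Schwann cells, both differed by -0.22. Sostdc1, a secreted BMP and Wnt modulator, differed by -0.21 and the kainate receptor gene Grik3 by -0.20. L1cam and Dhh stood at 10.21 and 9.26 in Adam19-/- cells, against 10.42 and 9.48 in Adam19+/+ cells. These differences were larger than those of Fabp7 and Mbp and smaller than that of Ptprz1.

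Transcription factors of the lineage and genes of satellite-type glia differed in both directions. Of 15 such factors above the floor, 7 were higher and 8 lower, against 65.2% and 33.7% of all genes. Their median was -0.03 beside 0.04 for all genes. Tfap2b, an AP-2 factor of the neural crest and of sympathetic neurons, was at 0.26 and the repressor gene Zfp488 at 0.15, while Egr2, which switches on myelin genes, was at -0.21 and Yy1, a zinc finger factor needed for myelination, at -0.17. Egr2 is also an immediate early gene. Of 11 satellite and astrocyte-type genes above the floor, 4 were higher and 7 lower, against the same shares of all genes, the median being -0.03. Gja1, the gap junction gene of many cell types, was at 0.27 and the glutamate transporter gene Slc1a3 at 0.16, against -0.22 for the Notch target Hey2 and -0.13 for Sparcl1. Over these 4 lists together, without the 7 genes, 39 of 66 genes above the floor were lower and 27 higher, around a median of -0.03. The shares of all genes were 33.7% lower and 65.2% higher. None of the 66 reached 1.5-fold, which only 0.237% of all genes did.

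Neuregulin signalling genes differed in both directions. Of 9 above the floor, 4 were higher and 5 lower, against 65.2% and 33.7% of all genes. Their median was -0.03 beside 0.04 for all genes. This split depended on the scale, being 2 higher and 7 lower after lowess centring, where the shares of all genes were not counted. Erbb4 was at 0.19, while the protease gene Bace1, whose product processes neuregulin, was at -0.12 and Nrg3 and Erbb3 were at -0.11 each. Adam19, a metalloprotease that can also cut neuregulin in cultured cells, had a log2 signal of 9.77 in Adam19-/- cells against 11.62 in Adam19+/+ cells, differing by -1.85, in the direction of the labels.

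The relatives and partners of the 7 genes were set beside them. Among the binding partners of Ptprz1, the ligand gene Mdk was at 0.14 and the matrix ligand gene Tnc at 0.16, while the ligand gene Ptn differed by less than 0.01, at 12.38 on both arrays. Its closest paralogue, Ptprg, was at 0.03, and Alk, a receptor tyrosine kinase linked to pleiotrophin and midkine, was at 0.11. The syndecan gene Sdc3 was at -0.11, so none of the 10 partners above the floor came near the -0.34 of Ptprz1. The sign of Ptprg was negative after quantile normalisation and after either centring, and that of Ptn positive after quantile normalisation.

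Fabp7 was lower while some related lipid carriers were higher. Fabp5, the epidermal fatty acid-binding protein that glia and other cells make, had a log2 signal of 10.95 in Adam19-/- cells against 10.83 in Adam19+/+ cells, differing by 0.12. Fabp3, the heart-type protein, stood at 9.34 in Adam19-/- cells against 9.47 in Adam19+/+ cells, differing by -0.14. The retinoic acid-binding genes Crabp1 and Crabp2 were at 0.28 and 0.16. Pmp2, the fatty acid-binding protein of peripheral myelin, lay far under the floor at 5.40 in Adam19-/- cells against 5.23 in Adam19+/+ cells. Of the 12 measured genes of this family, 5 were above the floor.

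The relatives of Pmp22 lay between -0.15 and 0.11. Emp1, Emp2 and Emp3, its epithelial membrane protein paralogues, were at -0.01, 0.11 and 0.09, and Tmem47, a more distant relative, was at 0.02. Perp, a p53 target of the same superfamily, was lowest at -0.15. Signs within 0.05 of zero are not settled, since Emp1 turned positive after quantile normalisation and Tmem47 negative after centring.

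Of the S100 genes, 11 of 17 measured lay under the floor, S100b among them. S100a13 and S100a1 were higher, at 0.28 and 0.24, the first of them passing the floor in Adam19-/- cells only. S100a10 and S100a11, which had log2 signals of 13.12 and 13.13 in Adam19-/- cells against 13.19 and 13.14 in Adam19+/+ cells, differed by -0.08 and -0.01. S100a16 was at -0.04, the same as S100b, and S100pbp, which encodes a protein that binds S100P in humans, was at 0.02. S100a11 and S100pbp changed sign under at least 1 other scaling.

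Egfl8 was compared with its paralogue and with neighbouring genes. Egfl7, an endothelial secreted factor, had a log2 signal of 8.32 in Adam19-/- cells against 8.08 in Adam19+/+ cells, differing by 0.23, opposite in sign to the -0.06 of Egfl8. In the RefSeq gene table Egfl8 lies on chromosome 17 between Agpat1, whose record overlaps its own, and Ppt2. Agpat1 was at -0.04 and Ppt2 at 0.17. Pbx2 was at 0.12 and Rnf5 at -0.02. Whether probes of Egfl8 also detect Agpat1 RNA cannot be read from the table, and the value of Egfl8 is uncertain to that extent.

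**Figure D3:**
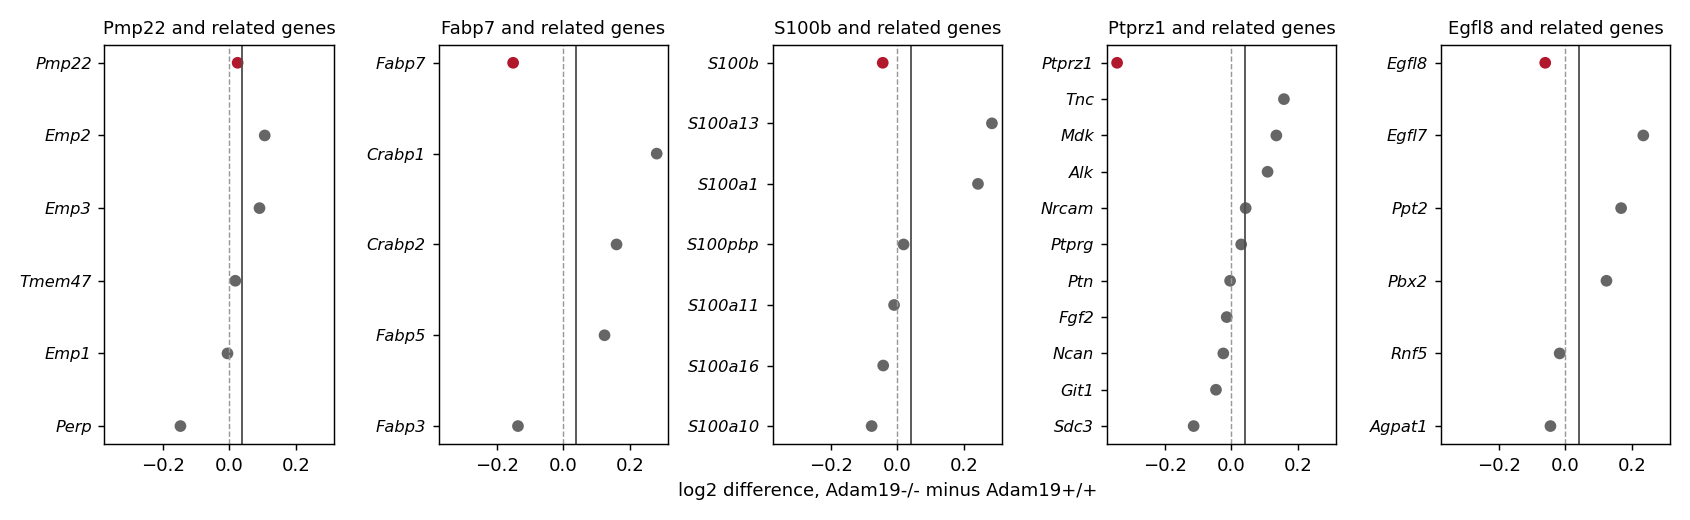
Log2 difference, Adam19-/- minus Adam19+/+ (horizontal axis), of 5 of the genes (red, top row of each panel) and their related or neighbouring genes above the floor (grey), 1 point per gene. The dashed line is 0 and the solid line the median of all genes, 0.04. Ptprz1 lies at -0.34 with its partners between -0.11 and 0.16.

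Markers of other cell types differed between the same arrays. Smooth muscle and autonomic neurons descend in part from the neural crest, whereas leukocytes, endothelial cells, cardiomyocytes and erythroid cells mostly do not, and a sort for tdTomato should remove these. All 12 leukocyte markers measured were higher in Adam19-/- cells on the deposited scale. Of all 19938 genes measured, 10303 were higher and 6808 lower, and the rest had equal values on both arrays. The leukocyte median was 0.35. Aif1, at 0.02, was negative once the median of all genes was subtracted, and Cd68, at 0.05, after lowess centring. Over the 12, their linear signals summed to 2815 in Adam19-/- cells, against 2093 in Adam19+/+ cells. The largest differences among those that passed the floor were Laptm5 at 0.68 and C1qb at 0.65, and C1qb and Fcer1g passed it in Adam19-/- cells only. All 12 smooth muscle markers were lower, against 33.7% of all genes above the floor, with a median of -0.13, led by Itga8 at -0.41. Their summed signals were 33273 in Adam19-/- cells against 36476 in Adam19+/+ cells. Of 15 autonomic neuron markers 11, or 73.3%, were higher, against 65.2% of all genes above the floor. The median was 0.11 beside 0.04 for all genes, led by Th at 0.46. Their signals summed to 28816 in Adam19-/- cells against 27080 in Adam19+/+ cells. The Y-linked gene Uty had a log2 signal of 7.61 in Adam19-/- cells against 9.03 in Adam19+/+ cells. The summed signal of the 7 genes was 23966 in Adam19-/- cells against 25449 in Adam19+/+ cells. The part of these cell types, or of the sex of the embryos, in the differences of the 7 genes was not tested.

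Above the floor, the remaining marker lists had medians from 0.00 for melanocyte markers to 0.32 for erythroid markers, the latter over 2 genes. Of 12 mesenchymal markers 7 were higher and 5 lower, against 65.2% and 33.7% of all genes above the floor. Their median was 0.04, and they ranged from Dpt at -0.42 to Tcf21 at 0.57. Of 12 cardiomyocyte markers measured 9 were higher and 3 lower, against 10303 higher and 6808 lower of all 19938 genes measured. Their median was 0.12, led by Myl7 at 0.78. Among the 10 above the floor the median was 0.15, with Myh6 passing it in Adam19-/- cells only. Of 7 endothelial markers above the floor 4 were higher, against 65.2% of all genes, and the median was 0.11, led by Nfatc1 at 0.49. Melanocyte markers, of another neural crest lineage that can arise from Schwann cell precursors, had a median of 0.00 over 5 above the floor, and of -0.04 after quantile normalisation, with Dct at -0.16 and Kit at 0.12. Both erythroid markers above the floor, Hba-x and Hbb-y, were higher, at 0.36 and 0.29.

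**Figure D4:**
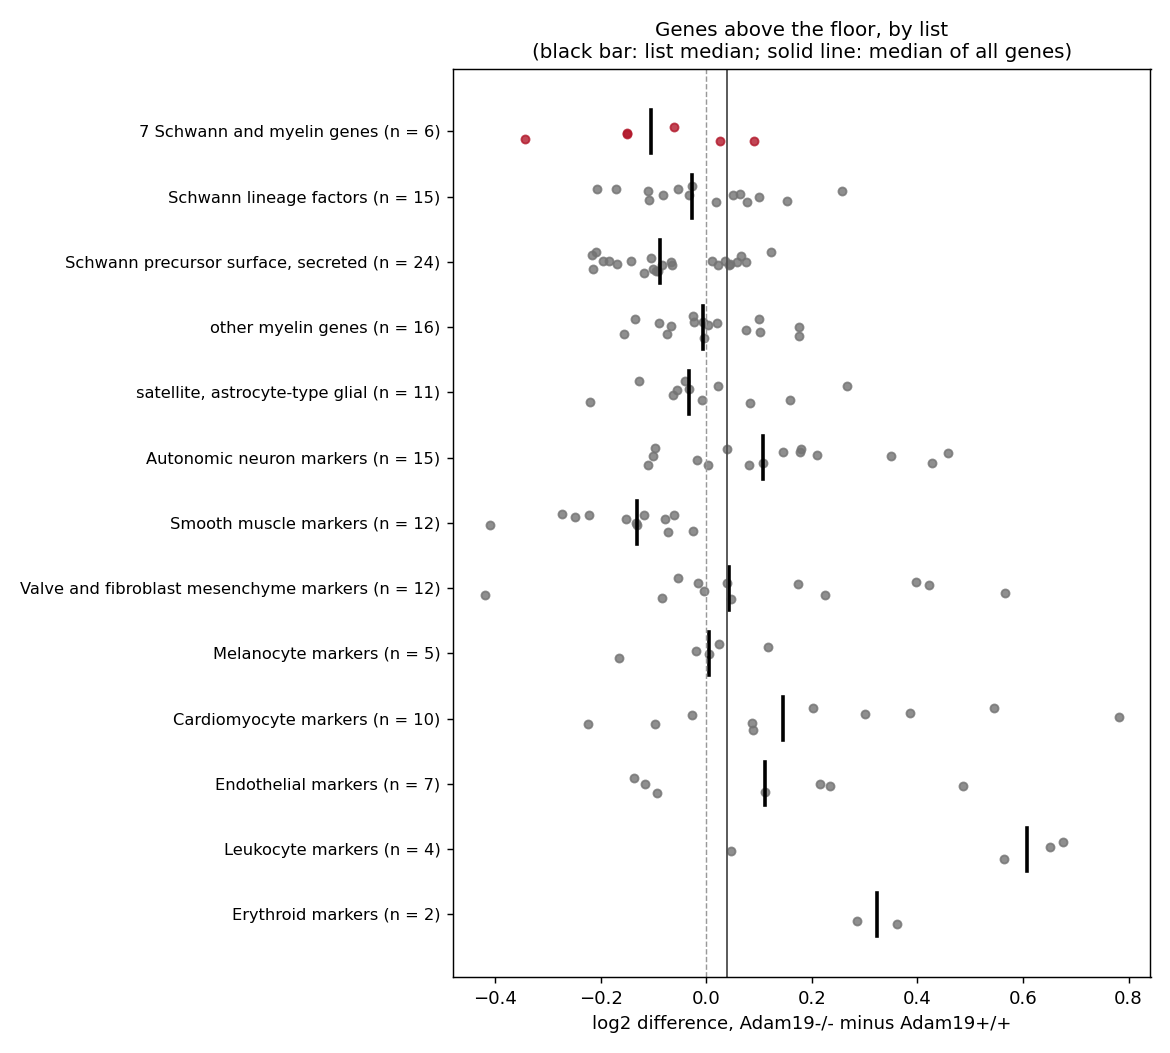
Log2 difference, Adam19-/- minus Adam19+/+ (horizontal axis), of genes above the floor by list, 1 point per gene, with the number of genes beside each name. Black bars are list medians, the dashed line is 0 and the solid line the median of all genes. The Schwann cell and myelin genes (red, median -0.11), Schwann precursor surface genes (-0.09) and smooth muscle markers (-0.13) have the lowest medians shown, and the leukocyte median of 0.61 is one over 4 genes, 2 of which passed the floor in Adam19-/- cells only, against 0.35 over all 12 measured.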

How the data were processed

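The authors deposited log2 signals per transcript cluster of the Affymetrix Mouse Gene 1.0 ST array, 1 column per array. The sources used here do not name their background correction, normalisation, probe summary or genome build. The log base was read from the values: the highest stands for a linear signal of 23484 as log2, and for 2.02e+06 as a natural log, beyond a 16-bit scanner. Of 28853 clusters, 21789 had 1 gene symbol, 1621 several and 5443 none in the platform annotation of 2016. Symbols were updated by Entrez identifier through a RefSeq table of GRCm38.p6 (21698 clusters matched, 91 kept the older symbol), and the brightest cluster stood for a gene. Clusters with several symbols or none were not used.

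Column medians were 7.52 for Adam19-/- and 7.49 for Adam19+/+ cells, and the arrays correlated across clusters with r = 0.998. Values were used as deposited. Differences are Adam19-/- minus Adam19+/+, with no test, as each genotype has 1 array and the number of arrays limits the precision. The members and the 19 gene lists were chosen with earlier results of these data known. Genes named are the 7 members, Adam19, up to 4 genes above the floor with the largest absolute difference per list, and relatives of the members. Uty, Aif1, Sox10, Sox2, Foxd3, Ngfr, Cdh19, Pax3, Pou3f1, Pou3f2, Olig1, Nkx2-2, Gjb1, Pmp2, Mia, Gpr37l1, Gfap, Artn and Col28a1 were added after their values were seen. Promoter windows are RefSeq's, matched by symbol, and 6 of the 7 genes were considered. Only the counting of genes past 1.5-fold was tested on simulated data, with shifts larger than the difference of any of the 7 genes. The work was done in Python 3.11.15 (pandas 2.3.3, numpy 2.4.6, matplotlib 3.10.9, statsmodels 0.14.6).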

Additional observations from a re-analysis of the deposited data

How the results depend on the processing

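Alternatives were quantile normalisation, setting the median difference to 0, centring on a lowess curve against signal, adding 32 to the linear signal, averaging the clusters of a gene, and other floors. The differences ran from -0.38 to -0.34 for Ptprz1, from -0.19 to -0.12 for Fabp7, from -0.20 to -0.14 for Mbp, from -0.10 to -0.06 for Egfl8, from -0.08 to -0.04 for S100b and from 0.05 to 0.09 for Cnp, each with 1 sign throughout. Pmp22 ran from -0.01 to 0.05 and changed sign once. Only quantile normalisation and the lowess curve could have turned a negative difference positive. Averaging changes nothing for genes with 1 cluster, and adding 32 keeps the order of the 2 signals. The median that was subtracted, 0.04, was itself positive. The largest shift of any member from its value as deposited was 0.054, for Mbp, against a median gap of 0.055 between 2 clusters of a gene. The median of the members ran from -0.15 to -0.06, and 3 to 5 were lower, with 5 to 7 counted as the floor moved. The number of genes at least 1.5-fold different was 24, against 42 with no floor and 7 with the floor at the 75th percentile, since these change how many dim genes are counted. No paired analysis was possible because each genotype has 1 array. The gene with the weakest signal, S100b, lies where dim probes limit what can be read.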

Other observations

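Some glial genes under the expression floor are given as values only. Mia, a secreted protein of cartilage and melanoma cells, had a log2 signal of 6.47 in Adam19-/- cells against 6.09 in Adam19+/+ cells, differing by 0.38. Gpr37l1, an orphan receptor of satellite glia and astrocytes, had 7.59 in Adam19-/- cells against 7.22 in Adam19+/+ cells, differing by 0.37. Gfap, the intermediate filament of astrocytes and some Schwann cells, had 6.02 in Adam19-/- cells against 6.21 in Adam19+/+ cells, differing by -0.19. Among all genes within 0.5 of the mean log2 signal, floor or not, the central 95% ran from -0.31 to 0.34 for Mia, from -0.30 to 0.39 for Gpr37l1 and from -0.30 to 0.34 for Gfap, so Gpr37l1 and Gfap lay inside it and Mia just outside. These genes were chosen after their values were seen. Several genes at this level had equal values on both arrays, among them Artn and Col28a1, at 7.03 and 7.16. Equal values were not confined to dim genes, since 108 of the 10122 genes above the floor had them too.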
